A study of Mus musculus with 55 samples.

Results

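The 10 genes described here mark the Kupffer cell, the resident macrophage of the liver: Clec4f, Vsig4, Timd4, Cd5l, Adgre1, Nr1h3, Spic, Lyz2, Cd68 and Folr2. They were chosen by symbol, and where a symbol had several transcript rows the one with the largest average FPKM was taken. All 10 were found among the 24478 symbols of the expression table. The table gives FPKM, fragments per kilobase of transcript scaled to the library's mapped reads, for 55 RNA-seq libraries from C57B/L6 mouse liver, 27 from normal liver and 28 after partial hepatectomy (PH), the surgical removal of part of the liver that makes the remnant regrow.

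Cells were sorted by FACS into 10 populations, each from normal and PH liver. They are named in the labels as kupffer cell (KC, 2 normal and 3 PH libraries), blood cell (2 and 2), hepatic stellate cell (HSC, 2 and 3), liver sinusoidal endothelial cell (LSEC, 3 and 5), endothelial cell (EC, 2 and 3), Thy1 cell (2 and 2), biliary epithelial cell (BEC, 4 and 2), clonal biliary epithelial cell (cBEC, 4 and 2), non progenitor ducts (NPD, 2 and 2) and hepatocyte (HC, 4 and 4). The labels give no age, sex, time after surgery, sort gate or number of animals per library. They also do not say that libraries of a group came from separate animals, so each p-value measures the spread between these libraries, which may be technical. One cBEC library titled PH carries a normal treatment tag and was used as titled, and the third PH KC library has no cell type tag and was used as titled.

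Kupffer cells sit inside the sinusoids, where they take up bacteria, dying cells and worn-out red cells from portal blood. Their identity rests on macrophage factors of the Ets and Maf families together with liver-specific inputs, among them the oxysterol-activated nuclear receptor LXRα, which Nr1h3 encodes. Blood monocytes share the general macrophage genes of this group, Lyz2 and Cd68, but lack most of the liver-specific ones until they settle in the liver.

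Promoters are shown for 4 members: Cd5l, which rose in the KC sort after PH, Clec4f, against which it is set further on, and the receptors Vsig4 and Timd4. The windows hold the 250 bases before the transcription start, read 5′ to 3′ on the gene's strand, from RefSeq with the GRCm38.p6 build. Capitals mark the letters GGAAGT, a core that Ets factors such as Spi1 and Spi-C can bind, and TGCTGA, an arm of the Maf recognition element, on either strand.
Cd5l, chr3:87357631-87357880, plus strand: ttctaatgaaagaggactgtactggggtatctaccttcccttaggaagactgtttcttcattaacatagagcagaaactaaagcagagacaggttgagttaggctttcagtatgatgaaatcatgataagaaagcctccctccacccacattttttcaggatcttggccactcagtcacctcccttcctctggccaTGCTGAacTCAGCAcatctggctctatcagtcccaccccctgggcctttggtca
Clec4f, chr6:83656117-83656366, minus strand: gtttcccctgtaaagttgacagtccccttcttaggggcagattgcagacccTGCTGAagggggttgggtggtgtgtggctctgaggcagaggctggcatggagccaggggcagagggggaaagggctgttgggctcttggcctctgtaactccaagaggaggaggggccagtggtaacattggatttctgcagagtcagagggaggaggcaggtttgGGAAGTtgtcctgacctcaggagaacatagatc
Vsig4, chrX:96293439-96293688, minus strand: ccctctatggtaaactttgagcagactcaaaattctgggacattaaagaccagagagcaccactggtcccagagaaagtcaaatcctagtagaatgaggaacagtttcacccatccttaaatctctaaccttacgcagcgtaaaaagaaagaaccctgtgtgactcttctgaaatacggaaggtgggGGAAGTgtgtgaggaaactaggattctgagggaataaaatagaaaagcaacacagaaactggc
Timd4, chr11:46810549-46810798, plus strand: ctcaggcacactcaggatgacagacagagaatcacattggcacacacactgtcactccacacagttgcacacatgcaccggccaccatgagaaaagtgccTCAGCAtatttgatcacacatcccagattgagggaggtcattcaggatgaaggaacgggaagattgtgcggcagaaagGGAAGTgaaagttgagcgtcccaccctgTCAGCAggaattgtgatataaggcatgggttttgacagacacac
The Cd5l window held TGCTGA and its reverse complement side by side, separated only by the letters ac, and no GGAAGT. The Clec4f and Timd4 windows held both motifs, and the Vsig4 window held GGAAGT alone. No match to one motif overlapped a match to the other in these windows.

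Of the 10 members, 9 matched the RefSeq promoter table, with 11 windows, and Adgre1 did not. GGAAGT was found for 6 members, in 6 of the 11 windows, and in 19.7% of the 32851 promoter windows of the table. TGCTGA was found for 6 members, in 7 of the 11 windows, and in 16.1% of all windows. The Nr1h3 and Cd68 windows held neither motif. The LXR element, 2 copies of AGGTCA with any 4 bases between them, was in none of the members' windows, and in 0.0152% of all windows. A match is a description of letters on either strand, not of a bound site.

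**Figure D1:**
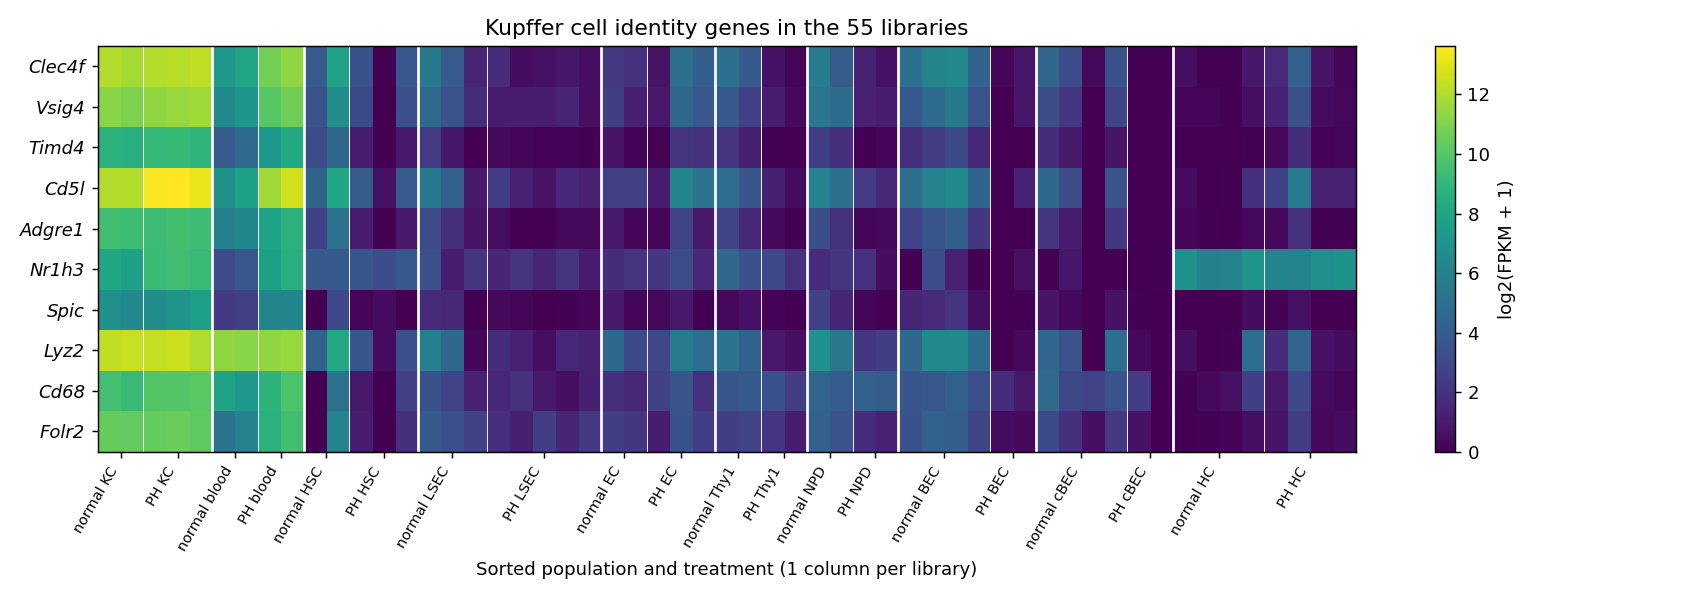
Heat map of log2(FPKM + 1) for the 10 genes (rows) in each of the 55 libraries (columns), ordered by sorted population, normal before PH. The KC columns are the brightest in every row, the blood columns brighten after PH for 9 genes, and Nr1h3 is also bright in all 8 hepatocyte columns.

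Surface receptors are described first. Clec4f, a C-type lectin receptor whose gene lies at chr6:83594536-83606110 in mm9 (minus strand), was at 4312 and 3500 FPKM in normal KC libraries and at 4294, 4549 and 5143 FPKM in PH ones. Vsig4, the complement receptor that captures opsonised particles (chrX:93442542-93488777, minus strand), was at 2324 and 1954 FPKM in normal and at 2666, 2973 and 3273 FPKM in PH libraries. The PH libraries lay above the normal ones for Vsig4 but overlapped them for Clec4f.

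Timd4 encodes a phosphatidylserine receptor for dying cells (chr11:46624301-46657835, plus strand). It was at 411 and 383 FPKM in normal and at 540, 567 and 472 FPKM in PH KC libraries, without overlap. Folr2, the macrophage folate receptor (chr7:108988502-108993845, minus strand), was at 1374 and 1312 FPKM in normal and at 1335, 1487 and 1224 FPKM in PH libraries. Adgre1, the adhesion receptor that is widely used as a mouse macrophage marker (chr17:57498109-57622952, plus strand), was at 698 and 665 FPKM in normal and at 658, 729 and 667 FPKM in PH libraries. For Folr2 and Adgre1 the normal libraries lay inside the range of the PH ones.

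Cd5l is a secreted macrophage protein that is known as an LXR target (chr3:87161803-87174996, plus strand). Its level was 4326 and 4258 FPKM in normal KC libraries and 12087, 12657 and 9537 FPKM in PH ones, so every PH library stood far above both normal ones. Nr1h3 (chr2:91024218-91035273, minus strand) was at 278 and 218 FPKM in normal and at 633, 686 and 606 FPKM in PH KC libraries, again with no overlap. Spic, the Ets-family factor of iron-recycling macrophages (chr10:88138015-88145768, minus strand), was at 115 and 88.5 FPKM in normal and at 104, 130 and 209 FPKM in PH libraries, which overlapped.

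The general myeloid members were Lyz2, which encodes lysozyme (chr10:116714597-116719328, minus strand), and Cd68, a lysosomal glycoprotein of macrophages (chr11:69477715-69479672, minus strand). Lyz2 was at 5068 and 5671 FPKM in normal and at 5368, 5980 and 4165 FPKM in PH KC libraries, which enclosed the normal ones. Cd68 was at 744 and 575 FPKM in normal and at 1015, 994 and 1118 FPKM in PH libraries, all above the normal ones.

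After PH, 4 of the 10 members rose in the KC sort and none fell, where 16.7% of all genes tested rose. The fit was limma on log2(FPKM + 1), adjusted by Benjamini-Hochberg over all genes tested, with a threshold of 0.05. Cd5l rose by 1.40 ± 0.15 (log2 difference ± SE, n = 2 and 3 libraries, adjusted p = 0.00251), and Nr1h3 by 1.38 ± 0.14 (adjusted p = 0.00232). Cd68 rose by 0.67 ± 0.15 (adjusted p = 0.0197) and Vsig4 by 0.47 ± 0.14 (adjusted p = 0.0469). On this scale the median difference of the 10 members was 0.44, against -0.04 over all genes tested.

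The other 6 members did not pass. Timd4 was just short of the threshold at 0.40 ± 0.12 (adjusted p = 0.0518), Clec4f stood at 0.26 ± 0.14 (adjusted p = 0.207) and Spic at 0.48 ± 0.32 (adjusted p = 0.281). Adgre1, Folr2 and Lyz2 had log2 differences of 0.01, 0.00 and -0.07, and each of the 3 changed sign under at least one other setting. The third PH KC library had the lowest Cd5l and the highest Spic and Clec4f of its group. Without it, 5 members passed, Timd4 being added.

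Cd5l and Nr1h3 passed whichever KC library was left out. Vsig4 passed in the fit without the third PH KC library but in none of the other fits that left out a library, and it had a log2 difference of -0.02 after quantile normalization. Cd68 had an adjusted p of 0.104 without the second normal library and 0.0617 without the first PH library. In one fit over all 20 groups, which pools their spread, none of the 10 passed in the KC sort, with adjusted p of 0.577 for Cd5l and 0.123 for Nr1h3.

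Endothelial transcripts moved in the same libraries. The summed level of 8 sinusoidal endothelial markers was 3835 to 5289 FPKM in the normal KC libraries and 291 to 548 FPKM in the PH ones, and all 8 fell, where 20.1% of all genes tested fell. The part of this shift in the members' differences was not tested. In bulk libraries such as these, fewer cells of a type and less RNA per cell cannot be told apart.

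**Figure D2:**
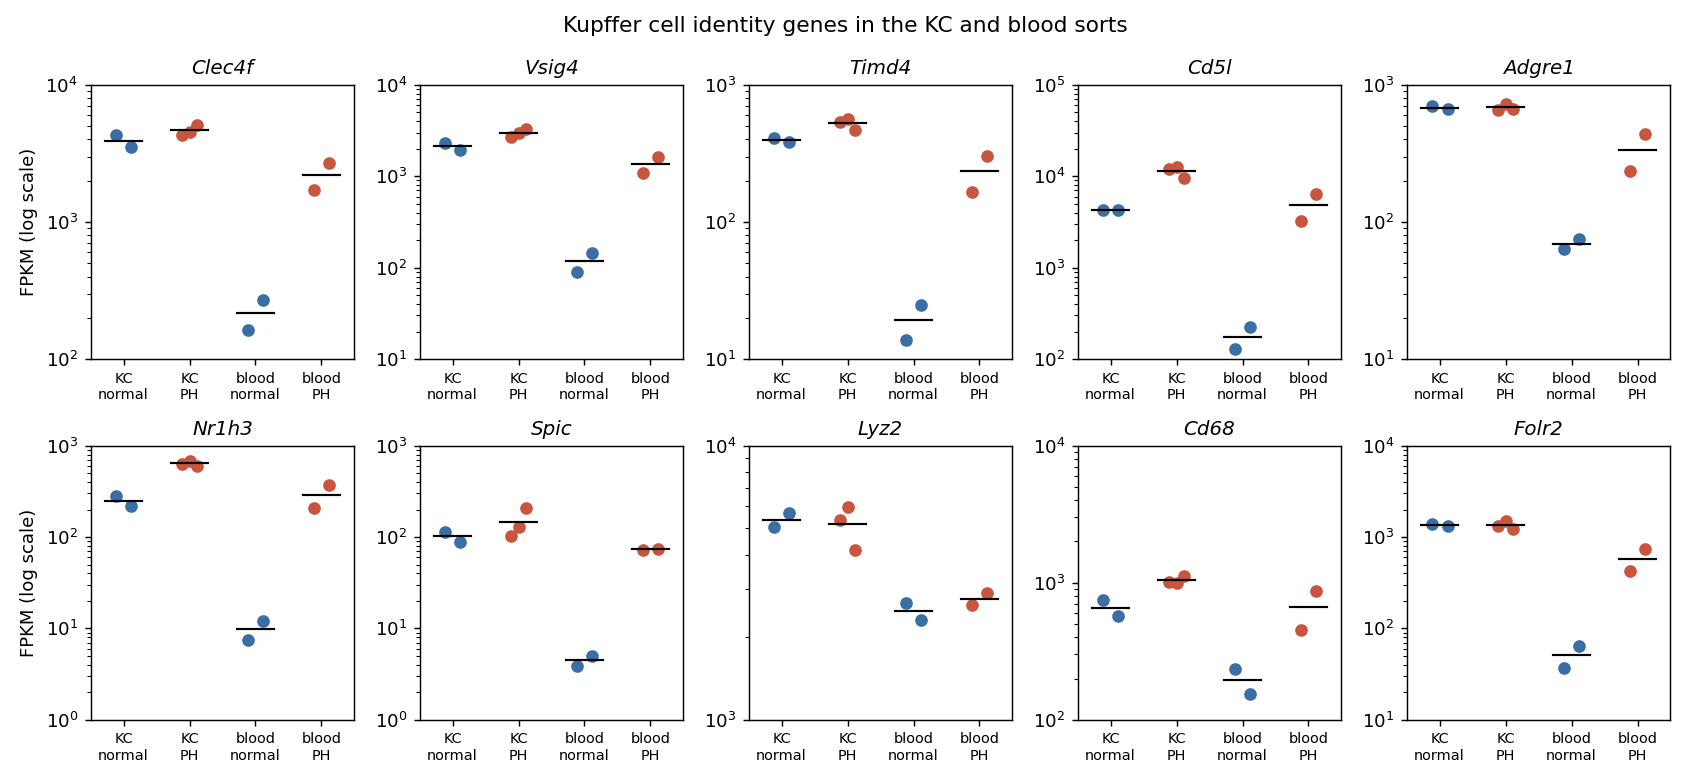
FPKM (log axis, a range of its own in each panel) of the 10 genes in normal (blue) and PH (red) libraries of the KC and blood sorts. Each point is a library and each bar a group mean. For Cd5l and Nr1h3 all 3 PH KC libraries lie above both normal ones, and for every gene but Lyz2 both PH blood libraries lie above both normal ones.

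In the blood sort of normal liver most members were far below their level in the KC sort. Clec4f was at 163 and 272 FPKM, Vsig4 at 90.4 and 145 FPKM and Timd4 at 13.8 and 24.9 FPKM. Folr2 was at 37.0 and 64.7 FPKM and Adgre1 at 63.6 and 75.2 FPKM. Cd5l stood at 129 and 222 FPKM, Nr1h3 at 7.54 and 12.1 FPKM and Spic at 3.92 and 5.04 FPKM. The second library was the higher one for each of these 8 genes.

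After PH the blood sort held far more of the same transcripts. Clec4f was at 1723 and 2680 FPKM, Vsig4 at 1081 and 1645 FPKM, Timd4 at 167 and 305 FPKM and Folr2 at 423 and 732 FPKM. Cd5l was at 3236 and 6454 FPKM, Nr1h3 at 211 and 370 FPKM, Spic at 71.7 and 74.5 FPKM and Adgre1 at 236 and 435 FPKM. For these 8 genes every PH library was above both normal libraries. How many of all genes were separated in this way was not counted.

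Lyz2 and Cd68 are also carried by monocytes and neutrophils. In normal blood libraries Lyz2 lay above every other member, while Cd68 overlapped Clec4f and Cd5l. Lyz2 was at 2674 and 2321 FPKM in normal blood libraries and at 2628 and 2912 FPKM in PH ones, which overlapped. Cd68 was at 236 and 154 FPKM in normal and at 455 and 871 FPKM in PH libraries, with no overlap.

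In the blood sort 9 of 10 members rose after PH, where 24.3% of all genes tested rose. Cd5l rose by 4.75 ± 0.45 (log2 difference ± SE, n = 2 and 2 libraries, adjusted p = 0.00168), Nr1h3 by 4.73 ± 0.36 (adjusted p = 0.00111) and Spic by 3.77 ± 0.17 (adjusted p = 0.000766). Vsig4 and Timd4 rose by 3.53 each, Folr2 by 3.48, Clec4f by 3.35, Adgre1 by 2.20 and Cd68 by 1.72. Lyz2 did not pass, at 0.15 ± 0.22 (adjusted p = 0.577), and had a log2 difference of -0.18 after quantile normalization. The median of the members was 3.50, against -0.31 over all genes tested.

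These calls lean on the first normal blood library. Without it, 2 members passed, Nr1h3 and Spic, although Clec4f still stood at 2.98 (adjusted p = 0.0546) and Cd5l at 4.36 (adjusted p = 0.053). Without the second normal blood library 7 passed, and without either PH library 9 passed. A fit that leaves 1 library in a group assumes that it varies like those of the other group.

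Other markers turned over in the blood sort at the same time, where 39.7% of all genes tested fell. All 10 lymphocyte markers fell, from a summed 2810 to 2845 FPKM in normal to 45.9 to 108 FPKM in PH libraries, and 8 of 10 neutrophil markers fell, from 3965 to 4286 FPKM to 1034 to 2426 FPKM. All 8 sinusoidal endothelial markers rose, from 889 to 993 FPKM to 2858 to 6409 FPKM. The part of these shifts in the members' rise was not tested.

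**Figure D3:**
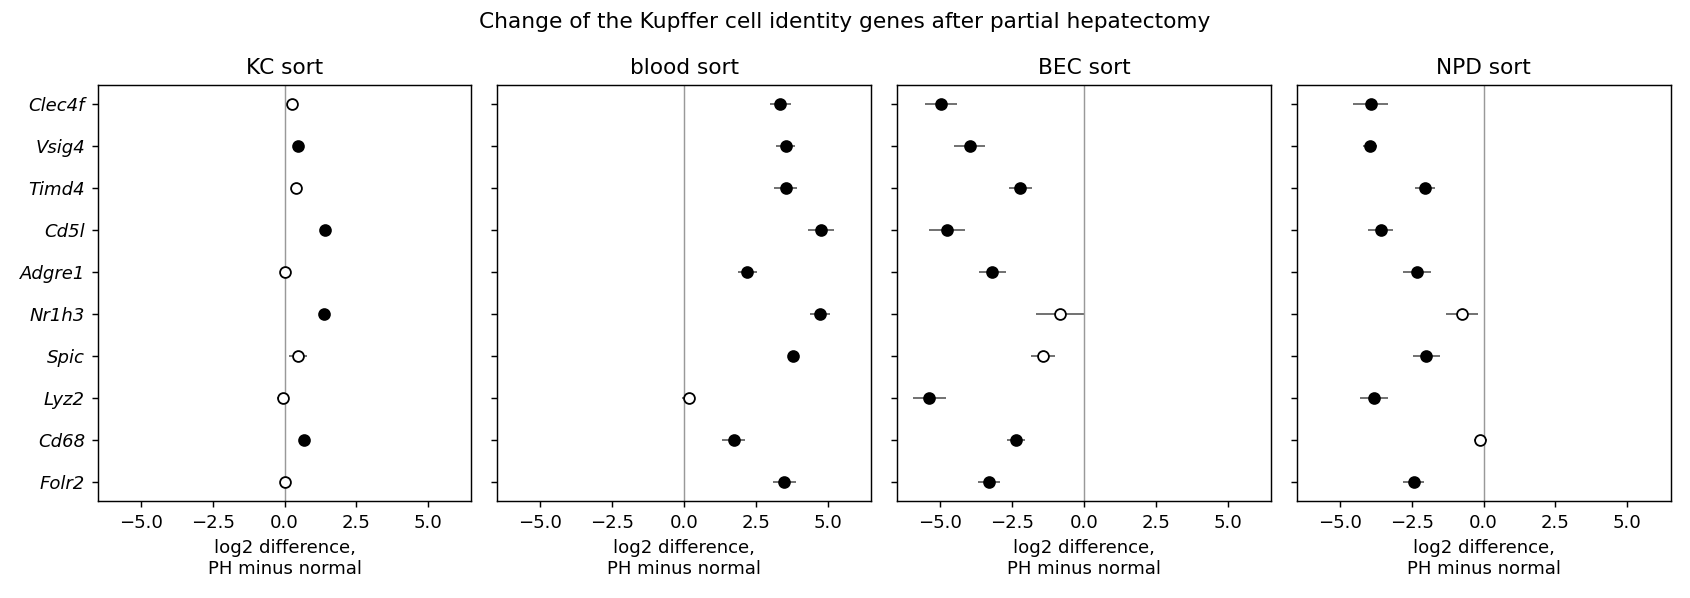
Log2 difference of the 10 genes between PH and normal libraries in 4 sorts, with bars for 1 SE. Filled points passed the limma test at an adjusted p under 0.05 and open points did not. Most points lie to the right of 0 in the blood sort, to the left in the BEC and NPD sorts, and close to 0 in the KC sort, where Cd5l and Nr1h3 are the farthest right.

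Within each treatment the KC sort had the highest mean of all 10 sorts for every member, and its lowest library exceeded the highest library of every other sort. The share of all genes for which this held was not counted. The blood sort came next for 9 members in normal liver and for all 10 after PH. The exception in normal liver was Nr1h3, with the hepatocyte sort next at 125, 61.9, 65.1 and 133 FPKM. Nr1h3 in PH hepatocytes was 69.2, 67.9, 115 and 122 FPKM, which overlapped the normal libraries.

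In normal liver, all 10 members were higher in KC than in blood libraries, where 27.4% of all genes tested were higher. The log2 difference was largest for Folr2 at 4.75 ± 0.27 (adjusted p = 0.000122) and Cd5l at 4.66 ± 0.27 (adjusted p = 0.000128). It was smallest for Lyz2 at 1.11 ± 0.16 (adjusted p = 0.00191) and Cd68 at 1.77 ± 0.25 (adjusted p = 0.00185). Expressed as a share of the KC mean, the blood mean was 46.5% for Lyz2, 29.6% for Cd68 and 10.2% for Adgre1, and 3.79% to 5.56% for the other 7 members.

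After PH the blood sort stood much closer to the KC sort. The blood mean was 42.4% (Cd5l) to 63.6% (Cd68) of the PH KC mean across the 10 members, a narrower range than in normal liver. Of the 10, 6 passed as higher in KC (Clec4f, Vsig4, Timd4, Nr1h3, Lyz2 and Folr2), where 1.72% of all genes tested were higher. Their log2 differences ran from 0.89 for Lyz2 to 1.27 for Folr2. Cd5l at 1.31 (adjusted p = 0.055) and Adgre1 at 1.09 (adjusted p = 0.0529) were just short of the threshold. The libraries did not overlap for any member, and the share of all genes without overlap was not counted. None of the 10 passed without the first PH blood library, the first PH KC library or the second PH KC library, or after quantile normalization, 1 passed with no filter on low values, and 8 passed without the second PH blood library or the third PH KC library.

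The response to PH was compared between the KC and blood sorts in one fit over all 20 groups. It was lower in KC for 4 of 10 members, where 16.3% of all genes tested were lower. The difference of the responses was -3.48 ± 1.30 for Folr2 (log2 difference ± SE, adjusted p = 0.0333), -3.35 ± 0.90 for Nr1h3 (adjusted p = 0.00312), -3.29 ± 0.73 for Spic (adjusted p = 0.00036) and -3.13 ± 0.82 for Timd4 (adjusted p = 0.00236). Cd5l, Clec4f, Vsig4 and Adgre1 had differences of -3.35, -3.09, -3.05 and -2.19 that did not pass in this fit. In a fit of the 4 KC and blood groups alone, 8 members passed, and with a pseudocount of 0.1 in place of 1 none passed. Folr2 also missed the threshold without the first normal blood library, either normal KC library or the second PH blood library.

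Against the sinusoidal endothelial sort, whose cells are the Kupffer cell's neighbours, the separation was wide in both treatments. In normal liver all 10 members were higher in KC than in LSEC libraries, where 14.2% of all genes tested were higher, with log2 differences of 5.61 to 8.83. Without the first normal KC library 7 passed, and without the second 8 passed. After PH all 10 were again higher, where 29.1% of all genes tested were, with log2 differences from 6.97 upward. Timd4, Adgre1 and Spic were under 1 FPKM in every PH LSEC library and met the filter through the KC ones alone.

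Outside the KC and blood sorts the members were present at low levels that varied between libraries. Nr1h3 stood apart most, with a hepatocyte mean at 38.8% of the KC mean in normal liver and 14.6% after PH. Its share was also 6.36% in normal Thy1 and 1.69% in PH HSC libraries, against 0.568% and 0.156% for Clec4f. In normal cBEC libraries the share of Cd68 was 1.84%, against 0.254% for Clec4f. For each library the level of each member was divided by the KC mean of the same treatment, and the median over the 10 members was taken. This median was 0.481% to 2.08% in normal BEC libraries, 0.785% to 1.46% in normal NPD, 0.0712% to 1.13% in normal LSEC, 0% to 0.548% in normal cBEC and 0.356% to 0.727% in normal Thy1 libraries. The 2 normal HSC libraries stood far apart, at 0.408% and 5.54%.

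That second normal HSC library held the highest level outside the KC and blood sorts for 9 of 10 members in normal liver. It had Clec4f at 234 FPKM, Cd5l at 279 FPKM and Lyz2 at 302 FPKM, against 13.9, 19.7 and 16.8 FPKM in the first. In the first library Cd68, Folr2 and Spic were listed at 0 although Clec4f was not.

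After PH the medians were 0.0367% to 0.0562% in NPD, 0.0139% to 0.0551% in LSEC, 0.00917% to 0.0394% in Thy1 and 0% to 0.196% in HSC libraries. In both BEC libraries they were at or under 0.0155%, and in both cBEC libraries 0%, as in the third normal cBEC library. Clec4f, Vsig4, Timd4, Cd5l and Adgre1 were listed at 0 in both PH cBEC libraries. In the EC sort the PH libraries, at 0.055% to 0.733%, enclosed the normal ones, at 0.126% to 0.287%. In the hepatocyte sort the ranges overlapped, at 0.00105% to 0.0482% in normal and 0.00994% to 0.405% in PH libraries.

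In the BEC sort 8 of 10 members fell after PH, where 1.57% of all genes tested fell. Of those that fell, Clec4f, Vsig4, Timd4, Adgre1, Lyz2 and Folr2 were under 1 FPKM in both PH libraries. They met the filter on low values through the normal libraries alone, so a rise could scarcely have been found for them. Lyz2 was at 21.9, 84.6, 87.0 and 27.6 FPKM in normal BEC libraries and at 0 and 0.281 FPKM in PH ones, a log2 difference of -5.38 ± 0.57 (adjusted p = 0.0066). Clec4f was at 30.1, 71.6, 85.8 and 19.9 FPKM in normal and at 0.158 and 0.804 FPKM in PH libraries, a log2 difference of -4.96 ± 0.56 (adjusted p = 0.0088). Cd5l fell by 4.76 and Vsig4 by 3.97 on the log2 scale. For 9 of the 10 members both PH libraries lay under every normal one, the exception being Nr1h3. The share of all genes separated in this way was not counted. Only Cd68 passed without the first PH BEC library and no member passed without the second, and 3 passed with no filter on low values.

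Sinusoidal endothelial markers moved with the members in the BEC sort: 5 of 8 fell, from a summed 107 to 398 FPKM to 10.9 to 14.2 FPKM. The part of this shift in the members' fall was not tested.

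In the NPD sort 8 of 10 members fell after PH, where 5.51% of all genes tested fell. Of those that fell, Timd4, Adgre1 and Spic were under 1 FPKM in both PH libraries. They met the filter on low values through the normal libraries alone, so they could only come out lower. Vsig4 was at 39.6 and 27.3 FPKM in normal and at 1.34 and 1.05 FPKM in PH libraries, a log2 difference of -3.95 ± 0.26 (adjusted p = 0.00714). Cd5l was at 65.8 and 31.2 FPKM in normal and at 4.09 and 1.97 FPKM in PH libraries, a log2 difference of -3.57 ± 0.44 (adjusted p = 0.0138). Cd68 differed from the rest, at 21.1 and 14.5 FPKM in normal and 17.1 and 15.2 FPKM in PH libraries, which overlapped. Nr1h3 also overlapped. No member passed without the first or without the second PH NPD library, and 2 passed with no filter on low values. Of 7 stellate cell markers 3 fell, with a summed level of 3261 to 3796 FPKM in normal and 1261 to 1347 FPKM in PH libraries. Of 8 sinusoidal endothelial markers 1 fell, with a summed level of 197 to 297 FPKM in normal and 72.1 to 73.1 FPKM in PH libraries. The part of these shifts in the members' fall was not tested.

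In the LSEC sort 7 members passed the filter on low values, and 2 of them fell after PH, where 4.31% of all genes tested fell. These were Vsig4 at -2.30 ± 0.53 (log2 difference ± SE, adjusted p = 0.0277) and Folr2 at -1.44 ± 0.35 (adjusted p = 0.0345). Neither passed without the first or second normal LSEC library or the first PH one, or with no filter on low values, and 8 members passed without the third normal library, which had the lowest members' median of its group.

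In the Thy1 sort both PH libraries lay under both normal ones for all 10 members, and the share of all genes that did so was not counted. None of the 9 members tested passed, where 0.00747% of all genes tested passed. At an unadjusted p under 0.05, 7 of the 9 passed, where 2417 of 13389 genes tested did. Clec4f, Timd4, Adgre1 and Lyz2 were under 1 FPKM in both PH libraries and met the filter through the normal ones, so they could only come out lower. Lyz2 was the lowest at -4.05 ± 0.40 (log2 difference ± SE, adjusted p = 0.0968). In the HSC sort none of 9 tested passed, where 0.00853% of all genes tested did. With an unadjusted p under 0.05, 6 of the 9 passed, where 995 of 11729 genes tested did. In the cBEC sort none of 7 tested passed, where 0.0681% of all genes did. With an unadjusted p under 0.05, 4 of the 7 passed, where 1346 of 13225 genes tested did. All members tested but Cd68 were under 1 FPKM in both PH cBEC libraries and met the filter through the normal ones. Without the third normal cBEC library 3 passed.

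In the EC sort none of 9 tested passed, where 0.0249% of all genes did. None of them had an unadjusted p under 0.05 either, where 1297 of 12064 genes tested did. In the hepatocyte sort only Cd5l and Nr1h3 could be tested and neither passed, where 6.19% of all genes did. Cd5l was at 0.39, 0, 0.05 and 2.57 FPKM in normal and at 5.25, 46.3, 1.46 and 1.6 FPKM in PH hepatocyte libraries, and its unadjusted p was under 0.05.

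The proportion of Cd5l to Clec4f was followed through the sorts as a description, with no test, because it was chosen after the values were seen. It was computed where both genes reached 1 FPKM. The ratio was 1.003 and 1.22 in normal KC libraries and 2.81, 2.78 and 1.85 in PH ones. In the blood sort it was 0.791 and 0.816 in normal and 1.88 and 2.41 in PH libraries. In both sorts every PH library was above every normal one.

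Among the other sorts the ratio had a median of 1.06 over 18 normal libraries, from 0.587 to 2.02, and of 2.25 over 8 PH libraries, from 1.16 to 2.86. Over all sorts, 9 of 13 PH libraries were above the highest of 22 normal ones. The 4 that were not were the third PH KC library, the first PH blood library and a pair of PH HSC libraries. The highest ratio was that of the first PH NPD library, from a sort in which both genes fell after PH. There Clec4f was at 1.43 FPKM, close to the limit of 1 FPKM, and Cd5l at 4.09 FPKM.

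**Figure D4:**
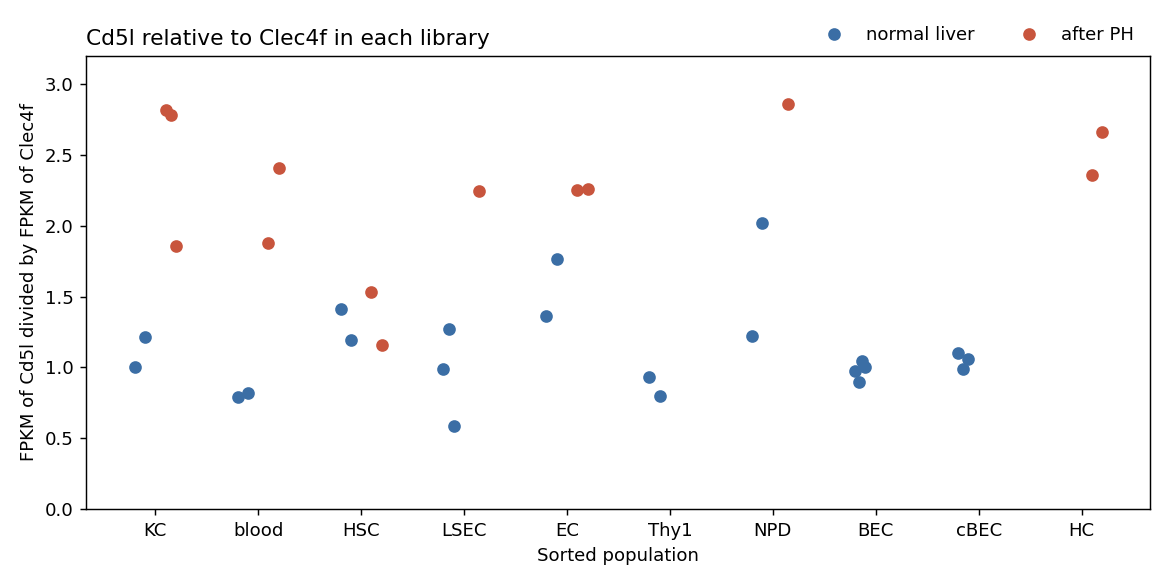
FPKM of Cd5l divided by FPKM of Clec4f (linear axis) in each library where both reached 1 FPKM, by sorted population, normal in blue and PH in red. Normal libraries lie between 0.587 and 2.02, and 9 of 13 PH libraries lie above that range.

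Across the 20 group means the members ran in parallel. Over the 36 pairs without Nr1h3, Pearson's r of log2(FPKM + 1) lay between 0.911 and 0.996. Pairs with Nr1h3 lay between 0.616 and 0.748, and Nr1h3 was the member with a high level in hepatocytes. The points share the KC and blood sorts, which set most of the range, so these values describe the table only.

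The other genes whose pattern was most like the mean profile of the members, by the same r over 20 groups, were Fcgr4 (0.994), Cd163 (0.991), Cd300c2 (0.991), Wfdc17 (0.990), Cd300ld (0.989), Slc11a1 (0.989), Siglece (0.989), Treml4 (0.988), Hk3 (0.987) and Clec4a1 (0.985). Cd163 is the haemoglobin scavenger receptor and Slc11a1 a metal transporter of the macrophage phagosome. Cd163 means were 452 FPKM in normal KC, 611 in PH KC, 19.7 in normal blood and 489 in PH blood libraries.

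Further Kupffer and macrophage genes were followed as a list of 20. In the KC sort 7 of them rose after PH and none fell, where 16.7% of all genes tested rose and 20.1% fell, with a median log2 difference of 0.41. Marco, the scavenger receptor, rose by 4.40 ± 0.11 (adjusted p = 0.000239), from a mean of 338 to 7180 FPKM, which exceeded the rise of any member. Msr1, another scavenger receptor, rose by 0.90, Il18bp, which binds interleukin, by 0.69 and the signalling adaptor Tyrobp by 0.55. In the blood sort 19 of the 20 rose, where 24.3% of all genes tested rose, with Marco at 8.59, Hmox1 at 6.59, C1qa at 4.64 and Cd163 at 4.48, and Tyrobp did not pass at -0.58.

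A list of 12 macrophage transcription factors was read next. In the KC sort none rose and 4 fell, where 20.1% of all genes tested fell: Maf by 1.58, Id1 by 1.16, Id3 by 1.12 and Zeb2 by 0.63 on the log2 scale. Spi1, the Ets factor of macrophages, was at a mean of 273 FPKM in normal and 358 FPKM in PH libraries and did not pass (adjusted p = 0.0949). Maf and Id1 are also known from endothelium, whose markers fell in the same libraries, and the part of that shift was not tested. In the blood sort 9 of the 12 rose and 2 fell, where 24.3% of all genes tested rose and 39.7% fell. Cebpa was listed at 0 in both normal libraries and had a mean of 62.7 FPKM in PH ones, and Cebpb rose by 5.34 and Rxra by 5.18. Irf8 fell by 2.34 and Rbpj by 0.81.

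Because LXRα is the product of Nr1h3, a list of 12 known LXR targets was read beside it. In the KC sort 4 rose and 2 fell, where 16.7% of all genes tested rose and 20.1% fell, with a median log2 difference of 0.36. Scd1, a fatty acid desaturase, was listed at 0 in both normal KC libraries and had a mean of 113 FPKM in PH ones. Fasn, the fatty acid synthase, rose by 3.56, Scd2 by 2.20 and Lpcat3, which remodels membrane phospholipids, by 0.78. Mylip, which promotes degradation of the LDL receptor, fell by 1.79 and Arl4c by 0.79, while the cholesterol exporters Abca1 and Abcg1 had differences of -0.03 and 0.36 that did not pass. In the blood sort 8 of the 12 rose and Srebf1 fell, where 24.3% of all genes tested rose and 39.7% fell. Apoc1 was listed at 0 in both normal blood libraries and had a mean of 757 FPKM in PH ones, and Apoe rose by 3.34, Abca1 by 2.09 and Pltp by 2.08.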

How the data were processed

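RNA of sorted liver populations was sequenced, and the authors deposited 1 table of FPKM for 36141 transcript rows in 55 libraries. The unit is named by the deposited file alone. The submitters' processing notes name CASAVA 1.8.2, Bowtie 1.0.0 and the mm9 build, and the counting tool is not given in the sources used here. FPKM summed to 624726 to 1203197 per library. The number of reads behind a value is unknown, so no counting interval is given. Replicates correlated at 0.922 to 0.996 (Pearson, log2 scale), and no pair was identical. Of 32052 transcripts compared with a reference annotation, 7803 had the span of a start counted from 0 and 847 that of a start counted from 1. The rest matched neither, and 1 was added to the starts. Matplotlib 3.10.9 drew the figures.

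One row per symbol was kept. Values were log2 transformed with a pseudocount of 1, so fold changes of low genes are understated, and genes under 1 FPKM in too many libraries (fewer at or above it than the smaller group has) were left out. limma 3.58.1 in R 4.3.3, with trend and robust empirical Bayes, was fitted to the groups of each of 15 comparisons, two-sided, with Benjamini-Hochberg adjustment over all genes and a threshold of 0.05. The difference of responses came from one fit of 20 groups. On simulated data 173 of 200 genes changed by 2 (log2) were recovered for the KC comparison, among 11709 genes, and 108 of 200 for the blood comparison, among 12549. All 10 members are named, and of each macrophage and LXR list at most the 4 with the largest change among those passing. Other marker lists are given as counts and sums. Tyrobp in blood, Spi1, Irf8, Rbpj, Lpcat3, Arl4c, Srebf1, and Abca1 and Abcg1 in KC were named after their values were seen. The 10 genes and the lists were chosen with earlier results of these data known, and the Cd5l to Clec4f ratio, the share of the KC level and the motifs after values were seen.

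Alternatives were other pseudocounts, filters, scalings, row choices, fits and a replicate block, and leaving out each library. Libraries of different groups share replicate numbers, and whether the numbers pair them is unknown. Correlations of same-numbered deviations from the group mean ran from -0.67 to 0.57. Both ends came from the hepatocyte sort, with 4 libraries per treatment, where the same number was the best match for replicate 4 alone. In a group of 2 libraries the deviations mirror each other, so those correlations cannot decide it.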

Additional observations from a re-analysis of the deposited data

Results flagged for a closer look

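In hepatocyte libraries single values stood away from the rest of their group by the spacing of the values. The second PH hepatocyte library was highest for Timd4 (2.35 FPKM), Adgre1 (2.9 FPKM) and Spic (0.52 FPKM). The fourth normal hepatocyte library was highest for Lyz2 (29.67 FPKM), Spic (0.36 FPKM) and Timd4 (0.07 FPKM). For Nr1h3, the second normal cBEC library stood apart at 0.838 FPKM. Of 50 sets examined, each the values of 1 gene in 1 group, 7 held a value that stood out. Chance gives about 1 in 20, or 2.5, for independent sets. These sets share libraries, and most of the 7 came from the same pair of hepatocyte libraries, so the comparison is rough.

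For 4 of 10 members the response to PH was lower in the KC than in the blood sort, where 16.3% of all genes tested were lower. This was a test of the difference itself (limma, log2 scale, KC minus blood), and none passed with a pseudocount of 0.1. The difference was -3.13 for Timd4, -3.35 for Nr1h3, -3.29 for Spic and -3.48 for Folr2.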

How the results depend on the processing

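Depth is unknown, and groups of 2 to 5 libraries limit precision. Nr1h3 and Cd5l kept their call in the KC sort in every fit without 1 library. Of the single-member values, 1010 kept direction and side of the threshold, 142 lost the call, 18 gained it and 14 changed sign.

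Counts below are of members unless genes are named. Quantile normalization gave 2 in KC, 1 in LSEC and 0 in KC against blood after PH, and genes called were 122 in BEC, 0 in EC and 3 in HSC. Restricting to genes under 10 FPKM in hepatocytes removed Cd5l and Nr1h3 and left 1 in KC; genes called were 2422 in KC, 0 in cBEC, 1241 in NPD, 2 in HSC, 6340 in normal KC against blood and 4627 in PH KC against LSEC. One fit of 20 groups gave 0 in KC, 5 in NPD, 1 in LSEC, 1 in Thy1, 4 in HSC and 0 in KC against blood after PH; genes called were 515 in cBEC, 349 in BEC, 1194 in HC, 205 in EC, 1886 in Thy1 and 1960 in HSC. A pseudocount of 0.1 gave 0 for the difference of responses, 481 genes in BEC and 0 in HSC. No filter gave 3 in BEC, 2 in NPD, 0 in LSEC and 1 in KC against blood after PH, and 53 genes in BEC, 648 in NPD, 0 in EC and 0 in HSC. Upper-quartile scaling gave 0 genes in HSC. A fit of the 4 KC and blood groups gave 8 for the difference of responses. The cause of these shifts was not tested, except where fewer genes were tested.

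With a replicate block, although it is unknown whether the numbers pair libraries, 1 member in cBEC, 0 in LSEC and 4 in Thy1 passed. Genes called with the block were 6549 in KC, 61 in cBEC, 1027 in BEC, 302 in HC, 0 in EC, 3 in LSEC, 485 in Thy1, 0 in HSC and 4658 in KC against blood after PH. The block turned Lyz2 to 0.080 in KC and to 0.15 in the difference of responses.

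Directions also turned in KC for Vsig4 (-0.019), Adgre1 (-0.302) and Folr2 (-0.0923), and in blood for Lyz2 (-0.18), under quantile normalization, for Lyz2 (0.0078) under upper-quartile scaling and for Folr2 (-0.0036) with the mean over rows. Without the second normal KC library they turned for Adgre1 (-0.0296), Lyz2 (0.0128) and Folr2 (-0.0311), without the second PH KC library for Adgre1 (-0.0402) and Folr2 (-0.0708), and without the third for Lyz2 (0.080). Over all libraries left out, Adgre1 ran from -0.0402 to 0.0409, Folr2 from -0.0708 to 0.0698 and Lyz2 from -0.181 to 0.080. Of these, only Vsig4 was called.

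Leaving out each library in turn gave 2 to 5 members in KC, 2 to 9 in blood, 0 to 3 in cBEC, 0 to 9 in BEC, 0 to 8 in NPD, 0 to 8 in LSEC and 0 to 8 in KC against blood after PH. Genes called ranged from 1471 to 6890 in KC, 1262 to 8683 in blood, 4 to 99 in cBEC, 22 to 387 in BEC, 302 to 687 in HC, 0 to 4481 in NPD, 0 to 8 in EC, 279 to 1289 in LSEC, 0 to 0 (each fit alike) in Thy1 and 0 to 3 in HSC. They ranged from 6369 to 9193 in normal KC against blood, 1458 to 3595 in normal KC against LSEC and 358 to 4159 in KC against blood after PH.

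Quantile normalization moved the median log2 difference of all genes from -0.04 to 0.09 in KC, -0.31 to -0.15 in blood, -0.11 to 0.05 in cBEC, -0.12 to 0.02 in BEC, -0.06 to 0.04 in Thy1, -0.40 to -0.16 in normal KC against blood and -0.03 to 0.17 in KC against blood after PH. Among genes called, the share that was higher went from 12.9% to 30.3% in BEC, 28.8% to 40.6% in HC and 11.2% to 33.9% in KC against blood after PH under it, and from 63.7% to 53.1% in NPD under upper-quartile scaling.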
